A study of Canis lupus familiaris with 22 samples.

Results

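EGF and VEGFA encode secreted growth factors, and their transcripts were followed in canine mammary tissue from malignant tumours, benign tumours and healthy glands. Members were all array probes, controls left out, whose stated target was a canine RefSeq transcript of either gene. This gave 3 of 43603 probes, 1 for EGF and 2 for VEGFA, and 2 of the 1458 genes that could be named by a symbol. Both VEGFA probes were designed on the same transcript.

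The tumours arose spontaneously in dogs sent for surgery, and healthy mammary gland came from healthy dogs. All animals had a local anaesthetic, lignocaine, before tissue was taken, and the sources used here give no other treatment, genetic change, age or breed for any group. A supplementary table of the paper gives a histological kind by sample code, with carcinomas, a myoepithelioma and a fibrosarcoma among 6 malignant codes. It has 4 benign and 3 healthy codes where the array titles have 3 and 2 dogs, and nothing states that codes and titles number the dogs alike, so the codes were not matched to arrays and kinds were not compared. RNA of each tissue was labelled with Cy3 and hybridized to Agilent canine arrays, and titles named 11 dogs on 22 arrays, 6 with malignant tumours, 3 with benign tumours and 2 healthy. Scanner values were analysed for 19 arrays of 10 dogs (malignant 9 arrays from 5 dogs, benign 6 from 3, healthy 4 from 2). The level of a probe is its log2 signal after the 75th percentile of the array was subtracted, averaged over the arrays of a dog, so that 0 marks the 75th percentile itself. Every n counts dogs, and a pair of arrays with the same number was taken as the same dog.

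EGF is made as a membrane-bound precursor from which the soluble ligand is cut, and it binds the receptor EGFR, which pairs with other ERBB receptors such as ERBB2 and signals through the RAS-MAPK and PI3K-AKT cascades. In the mammary gland this ligand family takes part in duct growth and in the changes of pregnancy, and ERBB2 is an oncogene of breast cancer. VEGFA is the main ligand for blood vessel growth, acts on the endothelial receptors FLT1 and KDR, and is among the classical target genes of the hypoxia factor HIF1A. EGF is also abundant outside the mammary gland, in kidney and salivary gland among other organs.

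Array quality was compared first, since a weak signal bears directly on detection of a low transcript such as EGF. The share of probes well above background was 63.7% to 76.4% for malignant, 71.5% to 83.2% for benign and 62.2% to 71.4% for healthy arrays, with medians of 72.5%, 73.7% and 67.8%. The 75th percentile of the processed signal was 299.5 to 1638 units for malignant, 1048 to 1632 for benign and 360 to 683 for healthy arrays. Healthy arrays were therefore dimmer than benign ones, and their ranges did not overlap. The arrays of a dog correlated at r of 0.982 to 0.990. The arrays lay on 6 slides, and the only array of malignant dog 5 was alone on its slide and in its scan session. With so few arrays, all estimates are imprecise.

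The labelled tissue was then checked against marker genes. Of 20 markers of mammary epithelium, 8 could be named, and their summed level was 5.57 and 6.72 in the healthy dogs, 4.91 to 8.78 in benign and 1.70 to 8.92 in malignant dogs on the log2 scale. It was lowest in malignant dog 5 (1.70) and malignant dog 3 (4.27), with KRT14 as the gene of brightest signal in both. Signals of different probes do not give relative amounts of transcript, so summed levels and the brightest gene of a list describe signal only. The cytokeratin KRT15 was at -7.30 in malignant dog 5 and at 2.65 to 7.79 in the other malignant dogs. Epithelial markers were thus present in both healthy dogs and scarce in malignant dog 5.

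Transcripts of other organs were abundant in the tissue labelled healthy. What tissue those samples held besides mammary gland was not tested, so every difference from healthy glands given here is a difference from tissue so labelled. Of 28 markers of exocrine pancreas, 7 could be named and tested, and their summed level was 12.18 in healthy dog 1 and 10.06 in healthy dog 2 against 0.70 to 1.84 in the tumours. PLA2G1B, a secreted phospholipase of pancreatic juice, had the brightest signal of the list in both healthy dogs, where the list took 1.41% and 0.617% of all signal. Limma called 6 of these 7 genes lower in malignant and 6 lower in benign tumours, where it called 0.416% and 0.379% of all probes. CLPS, the cofactor of pancreatic lipase, differed by -11.71 in malignant (SE 0.61, adjusted p = 1.46e-05) and -10.40 in benign tumours (SE 0.66, adjusted p = 6.89e-05), and lay below both healthy dogs in all tumours. CPB1, a pancreatic carboxypeptidase, differed by -13.40 and -13.27, PLA2G1B by -9.99 and -9.90, and GP2, a protein of zymogen granules, by -11.47 and -11.15. A probe for the lectin REG3A was well above background on no tumour array and on all 4 healthy arrays, so that healthy exceeded malignant at least 3059-fold and benign at least 3917-fold, while another REG3A probe was well above background on 5 of 19 arrays. The first of these probes passed the filter on dim probes only through its healthy arrays, and its difference was -10.48 and -10.85 with healthy dog 1 left out and -15.74 and -16.11 with the other left out, so the bounds depend on single dogs. With the methods' t-test after adjustment, the named benign calls were lost and 3 of 6 malignant calls kept (CLPS, CPB1 and PLA2G1B), and those of REG3A and GP2 in benign tumours were lost also when malignant dogs were kept out of the limma fit. The bounds compare the healthy mean with the dimmest detected signal of each array in the other group. The medians of the list were -11.47 for malignant and -11.11 for benign minus healthy, against 0.07 and 0.03 over all 35310 probes tested.

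Markers of islets, kidney and salivary gland had the same order of the healthy dogs, with dog 1 above dog 2. Of 8 islet markers 5 were tested, with a summed level of 9.62 in healthy dog 1, 4.81 in healthy dog 2 and at most 2.28 in the tumours, the last in benign dog 2 through GCG. INS, the insulin gene and the islet marker of brightest signal in both healthy dogs, differed by -10.67 in malignant and -10.72 in benign tumours (limma, adjusted p = 0.000278 and 0.000708). A dimmer INS probe, well above background on 19 arrays, gave smaller differences of -6.31 and -6.72 (limma, adjusted p = 0.0236 and 0.0337). SST was well above background on 4 of 4 healthy, 1 of 9 malignant and 0 of 6 benign arrays, and would not have passed the filter on dim probes without its healthy arrays. Its difference of -10.00 in malignant tumours therefore rests on values mostly near background and is no measured fold, and for benign tumours only a bound can be given, with healthy at least 375-fold higher. IAPP fell by 6.80 in malignant tumours (adjusted p = 0.0160; 0.000102 to 0.908 over the alternatives), and PPY differed by -6.08 in benign tumours without passing the test (adjusted p = 0.125). In all, limma called 3 islet genes lower in malignant and 2 in benign tumours (0.416% and 0.379% of all probes), with medians of -6.80 and -6.08, and the calls of INS and SST were lost in both with the methods' t-test after adjustment, and in benign tumours also when malignant dogs were kept out of the limma fit. The medians of the islet genes were -4.28 and -3.23 without healthy dog 1, and -9.32 and -8.92 without healthy dog 2. These genes encode hormones of the endocrine pancreas, and all 5 had a lower mean in both kinds of tumour.

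Kidney and salivary gland are organs that themselves make much EGF. Of 14 kidney markers 4 were tested, and their summed level was 2.41 in healthy dog 1, -1.70 in healthy dog 2 and -2.90 to 0.15 in the tumours. UMOD, the kidney-specific uromodulin, was at 2.27 in healthy dog 1 and -2.81 in healthy dog 2 and well above background on all 4 healthy and no tumour arrays, so that healthy exceeded malignant at least 36.6-fold and benign at least 46.9-fold. It passed the filter on dim probes only through its healthy arrays, and its limma calls (adjusted p = 0.0195 and 0.0273) were lost on leaving out any single malignant dog, with normexp and in several other settings (2.00e-05 to 0.908 and 2.52e-05 to 0.814 over the alternatives). Leaving out healthy dog 1 moved its malignant minus healthy value to -3.78, and leaving out the other moved it to -8.86. The other kidney markers did not pass the test, with differences of -0.52 and -0.93 for AQP2, whose other probes gave -0.11 to 0.47, and of 0.28 and 1.58 for CUBN, in malignant and benign tumours. The list medians were -0.14 and -0.36, and they were 0.58 and 0.36 when healthy dog 1 was left out. KLK1, the tissue kallikrein, which pancreas and kidney also make and which was the only one of 6 salivary markers that could be named, was at 9.60 in healthy dog 1, 5.30 in healthy dog 2 and -1.98 to 3.13 in tumours. It fell by 7.50 in malignant tumours (SE 1.33, adjusted p = 0.0429 by limma) and differed by -7.92 in benign tumours (SE 1.46, adjusted p = 0.0577). Across the alternatives the adjusted p of KLK1 was 9.08e-05 to 0.999 in malignant and 7.88e-05 to 0.856 in benign tumours, and a further KLK1 probe passed in both, with -9.39 and -7.97 (adjusted p = 0.000900 and 0.00781).

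EGF, the ligand, was near the background in most tumours. Its level was -7.90, -6.01, -6.51, -7.30 and -6.78 in malignant dogs 1 to 5. In benign dogs 1 to 3 it was -4.00, -5.17 and -7.65, and in healthy dogs 1 and 2 it was 0.43 and -4.03. All malignant dogs lay below both healthy dogs, while benign dog 1 lay just above healthy dog 2 and benign dog 3 among the malignant dogs. Healthy dog 1 stood alone at the top of the order, so that the healthy pair itself was wide apart. Detection followed the same order, with EGF well above background on 0 of 9 malignant arrays, 3 of 6 benign arrays (both of dog 1 and 1 of dog 2) and 4 of 4 healthy arrays. Its processed signal was 3.36 to 19.7 units on malignant arrays and 38.2 to 730 on healthy arrays. The pattern of detection on all healthy and no malignant array was shared by 0.173% of the probes tested (61 of 35310). EGF thus met the filter on dim probes, which asked for 4 arrays, with its healthy arrays alone, and without them it would not have passed.

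**Figure D1:**
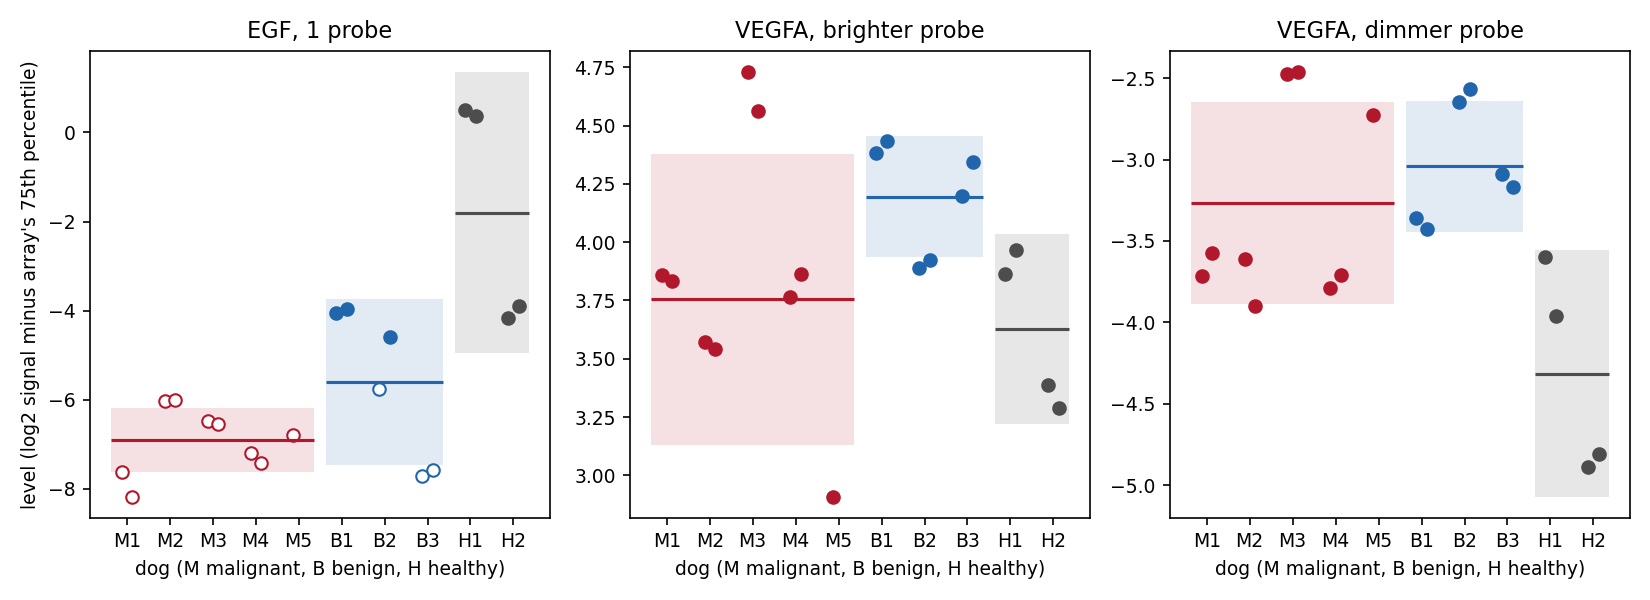
Level of each member probe by dog, as log2 signal minus the array's 75th percentile. Points are arrays, filled where the probe was well above background and open where it was not, lines are group means over dogs and bands are ± 1 SD; EGF has open points on all 9 malignant arrays, and both VEGFA probes have filled points on all 19.

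The group means of EGF were -6.90 ± 0.73 (SD, n = 5) in malignant tumours, -5.61 ± 1.86 (SD, n = 3) in benign tumours and -1.80 ± 3.16 (SD, n = 2) in healthy glands. Malignant tumours differed from healthy glands by -5.10 (SE 1.18, 95% interval -7.70 to -2.50), which did not pass limma's test over all probes (adjusted p = 0.214, unadjusted p = 0.00127). The exact permutation test over dogs, 2-sided, gave p = 0.0952, the smallest that 5 against 2 dogs allow. At this threshold limma called 147 of 35310 probes (0.416%), all lower in malignant tumours, and 0 of the 3 member probes. Because no malignant array detected EGF, the fold is a bound, and healthy exceeded malignant at least 12.7-fold. Every malignant dog lay below both healthy dogs in 2.83% of all probes.

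Healthy dog 1 carried much of this difference. Without it, malignant minus healthy was -2.87 and the bound at least 2.70-fold, and without healthy dog 2 the difference was -7.33 (adjusted p = 0.00889 by limma) and the bound at least 59.6-fold. With only 1 healthy dog left, that dog is assumed to vary like the dogs of the other groups. Over the alternatives the adjusted p was 0.00175 to 1.00. With normexp background correction, which adds an offset and draws dim values together, the difference was -1.92 and the bound at least 3.67-fold. In bulk tissue, fewer cells that make a transcript and less RNA per cell cannot be told apart.

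In benign tumours EGF differed from healthy glands by -3.81 (SE 1.28, 95% interval -6.64 to -0.97; limma, adjusted p = 0.605, unadjusted p = 0.0133). The methods' t-test, which does not share the spread with malignant dogs, gave an SE of 2.17 and an unadjusted p of 0.177. The exact permutation p was 0.400, where 3 against 2 dogs allow 0.200 at the least, and 2 of 3 benign dogs lay below both healthy dogs. For all probes, limma called 134 (0.379%) in this comparison, 133 of them lower, and all 3 benign dogs lay below both healthy dogs in 11.1%. Leaving out healthy dog 1 gave -1.57 and leaving out healthy dog 2 gave -6.04 (adjusted p = 0.0323), with adjusted p of 0.0208 to 1.00 over the alternatives. EGF thus had the same sign in both kinds of tumour, although these comparisons share the healthy dogs.

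Between the tumours, malignant minus benign was -1.30 for EGF (SE 1.03, 95% interval -3.56 to 0.97; limma, adjusted p = 1.00), with an exact permutation p of 0.250 where 0.0357 was the smallest possible. Leaving out benign dog 1 gave -0.49 and leaving out benign dog 3 gave -2.32. No probe was called in this comparison (0% of 35310; 637 probes had an unadjusted p of at most 0.05 by limma and 803 by the methods' t-test). The difference was 0.30 after normexp and 0.08 in the table of signals with no background taken off. Normexp also moved the median of all probes in this comparison, from 0.06 to 0.33, and the cause of the turn was not tested. EGF was well above background on 0 of 9 malignant and 3 of 6 benign arrays, so these differences rest on values mostly near background. They are no measured folds, and in these values the malignant group and its neighbour, the benign group, did not differ beyond their spread.

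Of the 6 slides, 5 held dogs of more than 1 group, which allowed a comparison of EGF inside those slides, while malignant dog 5 had none. Malignant minus healthy was -5.79, -7.47 and -3.52 on the 3 slides that held both, and benign minus healthy was -2.21 and -1.87 on 2 slides. Malignant minus benign was -3.58, -0.11, -1.65 and -1.68 on 4 slides. Each value rests on 1 or 2 arrays a group, and those of malignant arrays come from signals not well above background, as do all 4 arrays behind the value of -0.11. With the slide as a block and arrays as samples, malignant minus healthy was -5.21 (limma, adjusted p = 0.0204) and benign minus healthy -3.42 (adjusted p = 0.114). When the dog was added as a random block these were -5.16 (adjusted p = 0.329) and -3.82 (adjusted p = 0.492).

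**Figure D2:**
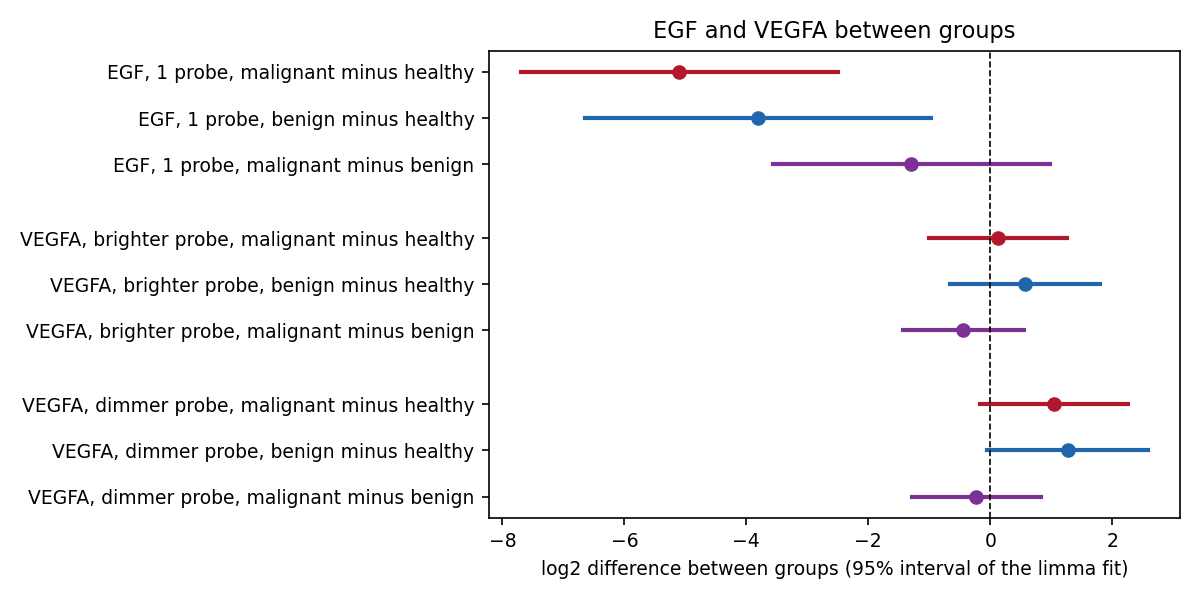
Log2 differences between groups for each member probe, with 95% intervals of the limma fit over 10 dogs. The intervals of EGF against healthy glands lie below 0 (-7.70 to -2.50 and -6.64 to -0.97), and all intervals of VEGFA include 0. These intervals use 1 spread shared by the 3 groups, while the SD of EGF in the 2 healthy dogs was 3.16. Neither EGF difference from healthy glands passed limma's test (adjusted p = 0.214 and 0.605).

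Healthy dog 1, with the highest EGF level of 0.43, also had the highest summed levels of exocrine pancreas (12.18), islets (9.62), KLK1 (9.60) and kidney markers (2.41). Healthy dog 2 followed for exocrine pancreas, islets and KLK1, but its kidney sum of -1.70 lay within the range of the tumours. Among tumours, benign dog 1, with the highest EGF (-4.00), had an exocrine sum of 1.79, and benign dog 2, second in EGF (-5.17), had the highest islet sum (2.28). Malignant dog 3, without detected EGF, had the highest tumour sums of exocrine pancreas (1.84), KLK1 (3.13) and kidney (0.15). Its arrays were the dimmest, with a 75th percentile of 299.5 and 330 units. As a share of all signal, exocrine markers were highest among tumours in benign dog 1 (0.00261%, against 0.00151% in malignant dog 3). Kidney markers were then highest in benign dog 2 (0.000781% against 0.000470%), and KLK1 still in malignant dog 3 (0.00370%). The part of these markers in the difference of EGF was not tested.

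**Figure D3:**
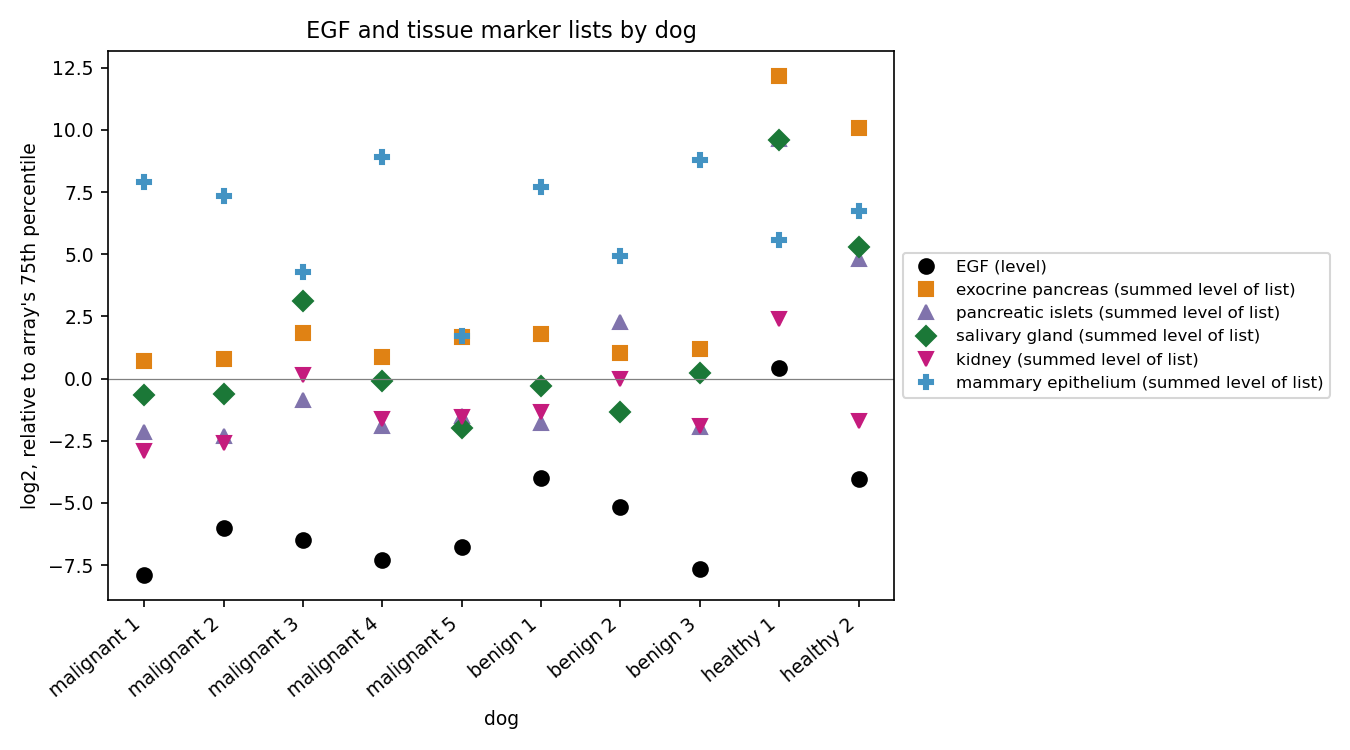
EGF level and summed levels of marker lists by dog, both on the log2 scale relative to the array's 75th percentile. Healthy dog 1 has the highest EGF level (0.43) and the highest sums for exocrine pancreas (12.18), islets (9.62), salivary gland (9.60) and kidney (2.41), and mammary epithelium is lowest in malignant dog 5 (1.70).

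The genes most like EGF were sought among 1321 other named genes by Pearson correlation over the 10 dogs, as a description without a test. They were GAL3ST1, a sulfotransferase that makes sulfatide (r = 0.974, rho = 0.964), TMED11 (r = 0.954, rho = 0.976), GATM, an enzyme of creatine synthesis (r = 0.927, rho = 0.770), PGA, a pepsinogen (r = 0.927, rho = 0.782), and the islet hormone gene IAPP (r = 0.912, rho = 0.612). The dogs share the single high value of healthy dog 1, and without it r was 0.913, 0.873, 0.811, 0.734 and 0.682 in the same order. Without the dogs farthest from the median of EGF, healthy dog 1 and benign dog 1, it was 0.955, 0.942, 0.826, 0.908 and 0.790. GAL3ST1 was well above background on 6 of 19 arrays, TMED11 on 10, GATM on 12, PGA on 7 and IAPP on 10, and EGF itself on 7, so these correlations include many values near background.

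TMED11 was at 5.87 in healthy dog 1, 1.1 in healthy dog 2 and -4.11 and -4.50 in benign dogs 1 and 2, and the other benign dog was at -7.96. It differed by -10.33 in malignant tumours (limma, adjusted p = 0.00701) and -9.01 in benign tumours (adjusted p = 0.0380). GATM differed by -11.54 and -9.49 (adjusted p = 0.00316 and 0.0314), whereas GAL3ST1 differed by -4.45 and -3.70 without passing the test (adjusted p = 0.214 and 0.510), as did PGA with -6.05 and -5.57 (adjusted p = 0.0735 and 0.217). These genes were chosen for their likeness to EGF in the same dogs.

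EGF was the only one of 11 ligands of its family that could be named. Of the 4 ERBB receptors only ERBB2, which has no known ligand of its own and serves as partner of the others, could be named, and it was well above background on all 19 arrays. Its level was -0.11, -0.11, 0.63, 0.18 and -0.92 in malignant dogs 1 to 5, 0.29, -0.11 and -0.31 in benign dogs, and 0.59 and -0.09 in healthy dogs. The groups overlapped throughout, and malignant minus healthy was -0.32 (SE 0.50, limma, adjusted p = 0.971), benign minus healthy -0.29 (SE 0.55, adjusted p = 0.975) and malignant minus benign -0.02 (SE 0.44, adjusted p = 1.00). Both differences from healthy glands turned positive without healthy dog 1, at 0.02 and 0.05. ERBB2 thus showed no difference of the size seen for EGF, and EGFR could not be named on this array.

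Downstream of the receptors, 11 of 42 genes of ERBB signalling could be named, all were tested, and limma called 0 in either tumour comparison. By limma, 0 genes in malignant and 1 in benign tumours had an unadjusted p of at most 0.05, and the methods' t-test 0 in both. Of all 35310 probes, limma counted 2053 and 2396 at that cut in either direction, and called 0.416% and 0.379% after adjustment. The median difference from healthy glands was 0.16 in malignant and 0.35 in benign tumours, against 0.07 and 0.03 over all probes. The largest in malignant tumours were CCND1, the cyclin of the G1 phase, at 1.37 (SE 0.66, adjusted p = 0.865), ADAM17, the protease that sheds several ERBB ligands, at 1.25 (SE 0.60, adjusted p = 0.864), and the GTPase NRAS at 1.01 (SE 0.68, adjusted p = 0.940). In benign tumours NRAS differed by 1.83 (SE 0.75, adjusted p = 0.703) and ADAM17 by 1.43 (SE 0.66, adjusted p = 0.743). None of these genes passed the test, and their standard errors were large beside their differences.

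**Figure D4:**
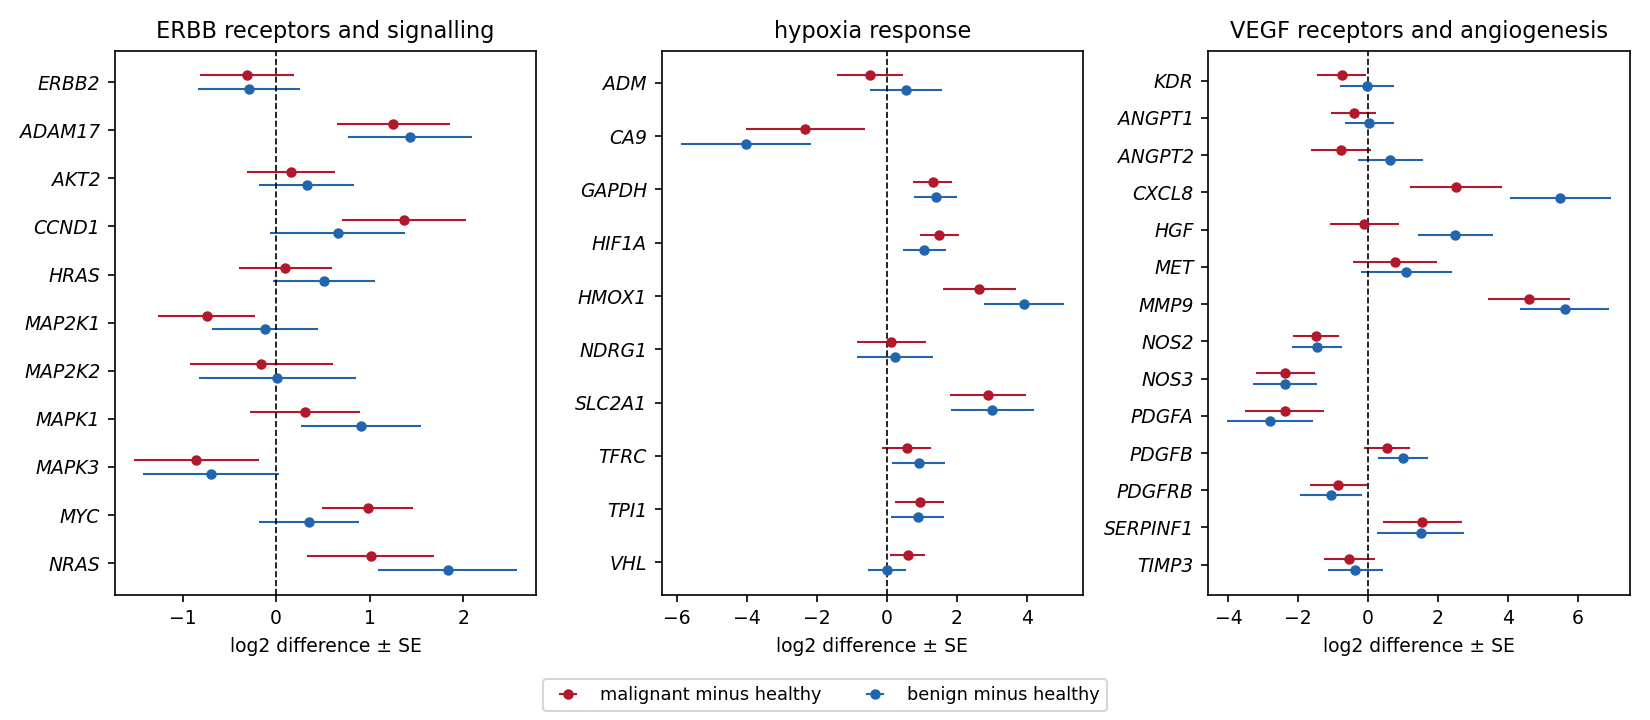
Log2 difference from healthy glands in malignant and benign tumours for tested genes of ERBB signalling, the hypoxia response, and VEGF receptors with angiogenesis, each by its brightest probe. Points are estimates and bars ± 1 SE of the limma fit; no gene shown passed the test, and the largest difference is that of MMP9, 5.62 in benign tumours.

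VEGFA was well above background on all 19 arrays with both probes. With the brighter probe the level was 3.85, 3.56, 4.64, 3.81 and 2.91 in malignant dogs 1 to 5, 4.41, 3.91 and 4.27 in benign dogs 1 to 3, and 3.91 and 3.34 in healthy dogs 1 and 2. Malignant dogs 3 and 5 were the highest and the lowest of all dogs, so that the healthy dogs lay inside the malignant range. The means were 3.75 ± 0.62 (SD, n = 5) in malignant, 4.20 ± 0.26 (SD, n = 3) in benign and 3.63 ± 0.41 (SD, n = 2) in healthy dogs, an order in which no neighbours differed beyond their spread. The arrays of a dog differed by at most 0.17 in this probe.

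Malignant minus healthy was 0.13 for this VEGFA probe (SE 0.51, 95% interval -1.0 to 1.26; limma, adjusted p = 0.995), with an exact permutation p of 0.857. Benign minus healthy was 0.57 (SE 0.56, interval -0.66 to 1.80, adjusted p = 0.918), with an exact permutation p of 0.400, and 2 of 3 benign dogs lay above both healthy dogs. Malignant minus benign was -0.44 (SE 0.45, interval -1.43 to 0.55, adjusted p = 1.00), with an exact permutation p of 0.321. The intervals include 0 and also differences of about a doubling of signal, so a change of that size could not be detected with these dogs. The difference in malignant tumours turned to -0.10 without malignant dog 3 and to -0.16 without healthy dog 2. On the slides that held both groups, malignant minus healthy was 0.23, -0.26 and 0.57, benign minus healthy 0.76 and 1.1, and malignant minus benign -0.52, 0.20, -0.53 and 0.13. With the slide as a block these were 0.33, 0.54 and -0.21.

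The dimmer VEGFA probe gave -3.64, -3.75, -2.47, -3.75 and -2.73 in malignant dogs 1 to 5. It gave -3.39, -2.60 and -3.13 in benign dogs, and -3.78 and -4.85 in healthy dogs. With this probe every tumour lay above both healthy dogs, though malignant dogs 2 and 4, at -3.75, were only just above healthy dog 1. The share of all probes with such an order was 4.26% for malignant and 12.4% for benign tumours. The means were -3.27 ± 0.62 (SD, n = 5), -3.04 ± 0.40 (SD, n = 3) and -4.31 ± 0.76 (SD, n = 2).

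By limma, this VEGFA probe differed by 1.05 in malignant tumours (SE 0.55, 95% interval -0.16 to 2.26, adjusted p = 0.894) and by 1.27 in benign tumours (SE 0.60, interval -0.05 to 2.59, adjusted p = 0.743). Without healthy dog 1 these differences were 1.58 and 1.81, and without healthy dog 2 they were 0.51 and 0.74. The exact permutation p values were 0.0952 and 0.200, each the smallest its number of dogs allows. Malignant minus benign was -0.23 (adjusted p = 1.00), with an exact permutation p of 0.643. With normexp the differences were 0.12, -0.04 and 0.16, and with the table of signals 0.22 and 0.23 against healthy glands. On single slides, malignant minus healthy was 0.53, 0.37 and 1.1, benign minus healthy 0.89 and 1.51, and malignant minus benign -0.36, -0.26, -0.41 and -0.62. The difference of this probe thus had the same direction on every slide with both groups and became small where its weak signal was treated otherwise.

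The probes of VEGFA, which share their transcript, followed each other weakly over the 10 dogs (r = 0.34, rho = 0.43). Malignant dog 3 was high with both, whereas malignant dog 5 was the lowest dog with the brighter probe and among the higher ones with the other. The mean of the probes gave 0.59 for malignant and 0.92 for benign minus healthy, and neither passed the test. Malignant dog 6, known only from the table of signals without background correction, was at 2.75 with the brighter probe, below the healthy dogs at 3.78 and 3.28 on that scale. With the other probe it was at -1.97, above the healthy dogs at -2.42 and -3.00, but on that scale malignant dog 1 was at -3.04, below both, and malignant dogs 2 and 4 and benign dogs 1 and 3 lay between them. Its EGF value was -2.98 against 0.23 and -2.85. On that scale malignant dog 3, at -2.82, lay just above healthy dog 2 in EGF, so not every malignant dog was below both healthy dogs there.

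VEGFA was the only one of 5 ligands of its family that could be named, and KDR, the main signalling receptor of VEGFA on endothelium, the only one of 5 receptors. KDR was well above background on all 19 arrays, with levels of 1.01, 1.79, -0.31, 0.10 and -0.61 in malignant dogs 1 to 5, 0.42, 1.44 and 1.53 in benign dogs, and 0.55 and 1.76 in healthy dogs. Malignant dogs 3, 4 and 5 lay below both healthy dogs and the other two malignant dogs did not. Malignant minus healthy was -0.76 (SE 0.70, limma, adjusted p = 0.952), malignant minus benign -0.73 (SE 0.61, adjusted p = 1.00), and benign minus healthy -0.02 (SE 0.77, adjusted p = 1.00), which was 0.03 with scaling to the median.

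Endothelium, the tissue on which VEGFA acts, was followed by 21 markers, of which 8 were tested, KDR among them. Limma called 0 of them, and the median difference was -0.72 in malignant and 0.09 in benign tumours, the latter -0.11 with normexp. Both turned with the healthy dog left out, from -1.40 without dog 1 to 0.22 without dog 2 in malignant and from -0.54 to 0.74 in benign tumours. Their summed level was 3.58 to 5.73 in malignant, 4.55 to 5.20 in benign and 5.97 and 6.25 in healthy dogs, with VWF, the von Willebrand factor, the brightest in signal in every dog. As a share of all signal the order was another, with 0.0368% in malignant dog 2 and 0.0277% in benign dog 1 against 0.0190% and 0.0441% in healthy dogs. VWF itself differed by -1.48 in malignant tumours (SE 0.67, limma, adjusted p = 0.859). NOS3, the endothelial nitric oxide synthase, differed by -2.37 and -2.38 (adjusted p = 0.729 and 0.685), but its other probes gave -0.82 to 0.01, and the brightest was at 4.68 in healthy dog 1 against 0.82 in healthy dog 2. The selectin SELE differed by 1.13 and 2.45 with a probe well above background on 14 arrays and by 0.77 and 0.41 with another on 17 arrays. SELP differed by -0.93 in malignant and 1.14 in benign tumours, with -0.59 and 1.19 in its other probe, and none of these was called. The part of endothelial content in the values of VEGFA and KDR was not tested.

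Among genes of the hypoxia response, 10 of 31 were tested and limma called 0 in both comparisons. Unadjusted, limma counted 4 higher genes in malignant and 3 in benign tumours, and the methods' t-test 3 and 1, where limma counted 2053 and 2396 of all 35310 probes in either direction. The medians were 0.78 and 0.90, with 5 of 10 genes above both healthy dogs in all malignant dogs and 5 of 10 in all benign dogs, an order that 4.26% and 12.4% of all probes had. SLC2A1, the glucose transporter GLUT1, was at 0.27 and 1.71 in healthy dogs and at 2.54 to 6.58 in tumours, a difference of 2.89 in malignant (SE 1.08, adjusted p = 0.775) and 3.02 in benign tumours (SE 1.18, adjusted p = 0.694). HMOX1, the inducible haem oxygenase, differed by 2.65 and 3.92 (adjusted p = 0.818 and 0.477), the latter called with arrays as samples and the dog as a random block. CA9, a carbonic anhydrase under strong control by hypoxia, had the opposite sign with -2.32 and -4.02 (adjusted p = 0.943 and 0.743), and healthy dog 1 had the highest value, 5.20, and without this dog the malignant difference was -0.34. Of the 10 genes, 8 had a higher mean in malignant and 9 in benign tumours. VEGFA lay below the medians of the list with its brighter probe (0.13 and 0.57) and above them with its dimmer probe (1.05 and 1.27).

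Other genes of angiogenesis numbered 13 of 25, of which NOS3 is also an endothelial marker, and limma called 0. Unadjusted, limma counted 1 higher and 2 lower in malignant and 3 higher and 2 lower in benign tumours, and the methods' t-test 1 higher in each, where limma counted 2053 and 2396 of all 35310 probes in either direction. The medians were -0.42 and 0.64, the second was -0.67 with normexp, and both turned with the healthy dog left out (-0.79 and 0.40 in malignant, -0.34 and 0.86 in benign tumours). MMP9, a protease that frees VEGFA from the matrix, was at -6.22 and -2.20 in healthy dogs and at -1.86 to 2.26 in tumours, a difference of 4.60 in malignant (SE 1.17, adjusted p = 0.327) and 5.62 in benign tumours (SE 1.28, adjusted p = 0.210), with 4.37 and 5.47 in a further probe, above background on 17 arrays, and -0.48 and 0.21 in another, above background on 5. CXCL8, a chemokine that attracts neutrophils and promotes vessel growth, differed by 2.51 and 5.50 (adjusted p = 0.895 and 0.358), with benign dogs 2 and 3 at 5.47 and 5.44, and in benign tumours CXCL8 and MMP9 were called with the dog as a random block. PDGFA, a growth factor for mesenchymal cells, differed by -2.39 and -2.80 (adjusted p = 0.863 and 0.729).

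The genes most like VEGFA by its brighter probe were ALPL, the alkaline phosphatase of liver, bone and kidney (r = 0.909, rho = 0.782), the cytokine TNFSF14 (r = 0.846, rho = 0.721), PGB1 (r = 0.841, rho = 0.733), CYP2C18 (r = 0.823, rho = 0.758) and RAB4B (r = 0.808, rho = 0.697). Without malignant dogs 5 and 3, the farthest from the median of VEGFA, r was 0.716, 0.655, 0.483, 0.345 and 0.693 in this order. Without only 1 of these dogs r was 0.661 to 0.870, and in tumours alone it was 0.928, 0.833, 0.949, 0.912 and 0.821. Leaving out the dogs farthest from the median narrows the range of VEGFA, so the lower r does not show how far likeness rested on them. Malignant dogs 5 and 3 were also the lowest in mammary epithelial markers. None of these 5 genes passed the test in any comparison, with adjusted p of at least 0.885. Their part in the level of VEGFA was not tested.

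Markers of other cells were compared because they differ in how much EGF and VEGFA they make. Of 13 macrophage markers 5 were tested, with a summed level of 3.28 to 4.22 in malignant, 4.23 to 4.62 in benign and 1.67 and 3.66 in healthy dogs and medians of 2.25 and 3.11. Without healthy dog 1 the medians, and likewise the differences of the marker TLR2, were 1.21 and 1.41. FCGR1A, an Fc receptor, rose by 4.04 in benign tumours (SE 0.63, limma, adjusted p = 0.0208; 0.332 without healthy dog 1 and 1.1e-06 to 0.814 over the alternatives) and was the only gene of any list called higher, while it differed by 2.25 in malignant tumours (adjusted p = 0.350). TLR2 differed by 2.94 and 3.14 and CD86 by 2.28 and 3.11 without passing the test, while with the dog as a random block CD86 was called in both and FCGR1A in malignant tumours as well. Macrophages are among the cells that make VEGFA, and the levels of VEGFA in benign dogs, 3.91 to 4.41, stood beside these markers without a test of their relation.

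Of 11 proliferation markers CCNB2 and BIRC5 were tested, with differences of 5.01 and 2.59 in malignant and 5.18 and 2.61 in benign tumours, medians of 3.80 and 3.90, and all tumours above both healthy dogs, an order that 4.26% of all probes had for malignant and 12.4% for benign tumours. Neither was called by its brightest probe (lowest adjusted p = 0.291 by limma), though CCNB2 in malignant tumours passed with the dog as a random block. Other CCNB2 probes gave 4.04 and 3.05 in malignant and 4.36 and 4.21 in benign tumours, also without a call (lowest adjusted p = 0.202 by limma). Of 10 milk protein genes 3 were tested, with medians of 0.93 and -0.20, both of which turned with the healthy dog left out, and the largest sum, 9.30, in a malignant dog. CSN2 differed by 2.09 and -0.20, LALBA by 0.86 and -1.0 and LTF by 0.93 and 2.12, with SE of 2.71 or more, while other LTF probes gave -0.04 to 0.74. The mammary epithelial list had 0 calls, with 4 of 8 genes at a higher mean in malignant and 7 of 8 in benign tumours (54.1% and 51.4% of all probes). The medians of the list were -0.32, which was 0.36 without malignant dog 5, and 0.19, which was -0.31 without healthy dog 1. Its largest differences were PGR, the progesterone receptor, at -2.54, KRT19 at -1.22 and CLDN3 at -1.21 in malignant tumours, and CLDN3 at -2.86, KRT15 at 2.42 and KRT14 at 0.55 in benign tumours. Malignant dog 5, with the least epithelial signal, was the lowest dog with the brighter VEGFA probe.

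In the adipose list, 3 of 10 markers were tested and 0 called, with medians of 1.19, which was 0.13 without malignant dog 5, and -0.78, which was 0.22 without healthy dog 2. PPARG differed by 1.69 and -0.01 (0.05 in benign tumours with scaling to the median), ADIPOQ by 1.19 and -1.13 and LEP by -0.62 and -0.78, where a further LEP probe gave 2.14 and 2.34. In malignant dog 5, the dog with the lowest VEGFA level of the brighter probe, PPARG was at 5.09 and ADIPOQ at 4.12, the highest values of both. Of 14 muscle markers 6 were named and 5 tested, with 0 called and medians of -0.03, which turned positive under other scalings, and -1.27, which was 0.13 without healthy dog 2. DES differed by -1.01 and MYH1 by 0.32 in malignant tumours, MYH7 by -2.33 and CKM by -1.67 in benign tumours, and a probe of MYH2, well above background on no healthy array, by 2.49 and 2.23, the latter -0.16 with normexp. Other probes gave 0.10 and 0.17 for MYH2 in malignant and 0.03 and 0.01 in benign tumours, -0.60 and -0.01 for MYH1 in malignant, and -1.1 to 0.66 for MYH7 in benign tumours.

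Of 11 lymphocyte markers 5 were tested and 0 called, with medians of 0.44 and 0.44 that were -0.05 and -0.52 with normexp. CD28, well above background on no healthy array, differed by 1.84 and 1.96, the latter -0.65 with normexp and -0.21 in the table of signals. CD8A differed by 0.98 and 0.59, MS4A1 by -0.94 in malignant and CD79A by 0.44 in benign tumours. The part of any of these cells in the levels of EGF and VEGFA was not tested.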

How the data were processed

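Processed files of 19 arrays and the deposited signals of all 22 arrays were analysed. The authors deposited scanner values of Feature Extraction 11.5.1.1 (version per the labels, the methods name another), in which the processed signal is a background-subtracted intensity on a linear scale, and a table with the median intensity of each spot, not background-subtracted or scaled (medians of 91 to 272 per array). From these, log2 levels relative to the 75th percentile of each array were computed without control and outlier spots, and arrays of a dog were averaged; labels call them biological duplicates and the methods duplicate arrays of a sample. Titles name 11 dogs and the methods name other numbers of dogs. No spot was saturated, and spots of the 50 probes on several spots were averaged.

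Probes well above background on at least 4 arrays (35310 of 43603) were fitted with limma 3.58.1 in R 4.3.3 (package data.table, version 1.17.8, figures with matplotlib 3.10.9), with 3 groups in a single fit, and called at a Benjamini-Hochberg adjusted p of at most 0.05. The script was tested on simulated data. Symbols came from RefSeq genes through the target of a probe and named 2353 probes. A gene of a list was represented by its brightest probe. Named were all members, all tested ligands and receptors, at most 4 called genes of each other list, up to 3 of its largest differences per tumour comparison, and the 5 genes most correlated with each member. Members and lists were chosen with earlier results of these data known. Normexp used the median signal, since the scanner values hold no mean signal, with an offset of 50. The slide block with the dog as a random block, and correlations without the farthest dogs and in tumours alone (the latter not printed for EGF, since most tumour arrays did not detect it), were chosen after seeing the data. The methods name a paired t-test; it was run unpaired with equal variances, since the groups are different dogs, and this is the methods' t-test of the text. No sequences are printed.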

Additional observations from a re-analysis of the deposited data

Results flagged for a closer look

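LALBA, the milk protein alpha-lactalbumin, was at 8.04 in malignant dog 2, far from the other malignant dogs at -4.41 to -1.21. Among 57 probes for which the malignant dogs were examined in this way, chance alone sets such a value apart in about 1 of 20.

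The dimmer VEGFA probe was at -1.97 in malignant dog 6, a dog known only from the table of signals and used in no test of the scanner values, above the healthy dogs at -3.00 and -2.42 on that scale. Other malignant dogs did not all lie there, with dogs 1, 2 and 4 at -3.04, -3.00 and -2.77. The difference was not tested.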

How the results depend on the processing

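For EGF and VEGFA, 8 results turned and 7 newly passed the threshold under settings with a test. No setting turned the difference of EGF from healthy glands. Malignant minus healthy of EGF passed limma's threshold with arrays as samples and no block (-5.12, adjusted p = 0.00175), with the slide as block (-5.21, adjusted p = 0.0204) and, without adjustment, with the methods' t-test (-5.10), and benign minus healthy with arrays as samples (-3.81, adjusted p = 0.0208), as did benign minus healthy of the dimmer VEGFA probe (1.27, adjusted p = 0.0411). The fits on arrays treat the arrays of a dog as independent. Single slides moved EGF to -7.47 (malignant minus healthy), -1.87 (benign minus healthy) and -3.58 (malignant minus benign), and the brighter VEGFA probe to 1.1 (benign minus healthy) and, with the sign turned, to 0.20 and 0.13 (malignant minus benign) and -0.26 (malignant minus healthy). EGF has no value among probes above background on every array.

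Directions turned as follows, and the cause was not tested. Normexp gave -0.65 for CD28 (benign), -0.37 for CD79A (benign), -0.49 for CD8A (benign), -0.0574 for CUBN (malignant), 0.30 for EGF (malignant against benign), 0.0488 for KDR (benign), -0.26 for MYH1 (malignant), -0.16 for MYH2 (benign), -0.0386 for the dimmer VEGFA probe (benign) and 0.16 for the dimmer VEGFA probe (malignant against benign). The median of all probes moved to -0.19 (malignant minus healthy), -0.49 (benign minus healthy) and 0.33 (malignant minus benign) under normexp. The table of signals on the same arrays gave -0.21 for CD28 (benign), -0.11 for CD79A (benign), -0.17 for CD8A (benign), -0.00513 for CUBN (malignant), 0.0778 for EGF (malignant against benign), 0.0238 for KDR (benign) and -0.13 for MYH1 (malignant), and on all 11 dogs -0.21 for CD28 (benign), -0.11 for CD79A (benign), -0.17 for CD8A (benign), 0.19 for EGF (malignant against benign), 0.0238 for KDR (benign), -0.16 for MYH1 (malignant) and 0.072 for the dimmer VEGFA probe (malignant against benign). The slide block gave 0.0763 for CLDN3 (malignant), 1.98 for CSN2 (benign), -0.59 for CUBN (malignant), 0.19 for ERBB2 (malignant against benign), 0.0983 for KDR (benign), 1.49 for KRT19 (malignant), 0.44 for LALBA (benign) and 0.0371 for MS4A1 (malignant), and with the dog as a random block 0.19 for ERBB2 (malignant against benign), 0.0181 for KDR (benign) and 0.52 for KRT19 (malignant). Scaling to the median gave 0.0316 for KDR (benign) and 0.0493 for PPARG (benign), and the mean over the probes of a gene 0.78 for LEP (benign), 0.76 for LEP (malignant) and -0.19 for MYH1 (malignant). The b arrays alone gave 0.0918 for CSN2 (benign), 0.00449 for ERBB2 (malignant against benign), 0.38 for KRT19 (malignant), -0.0696 for MYH1 (malignant) and 0.00595 for PPARG (benign), the a arrays alone 0.15 for ERBB2 (malignant against benign), and arrays without a block 0.0708 for ERBB2 (malignant against benign).

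Healthy glands came from healthy dogs, and nothing states that the numbers of the dogs pair the groups. Same-numbered dogs correlated at r of -0.174 to 0.106 over 7 pairs. Without dogs known to be paired for comparison, these r cannot decide on a pairing by the numbers. The replicate block on these numbers gave 89 calls for malignant and 85 for benign minus healthy, and it turned directions, with 0.11 for CLDN3 (malignant), 2.38 for CSN2 (benign), -0.26 for CUBN (malignant), 0.0599 for DES (malignant), 0.18 for ERBB2 (malignant against benign), 0.16 for KDR (benign), 1.14 for KRT19 (malignant), 1.12 for LALBA (benign), -0.13 for MYH1 (malignant) and 0.41 for PPARG (benign).

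Leaving out each dog in turn gave these lowest and highest values. For malignant minus healthy they were EGF -7.33 to -2.87, ERBB2 -0.65 to 0.0226 and VEGFA -0.16 to 0.42, then ADIPOQ -0.16 to 2.54, AQP2 -1.49 to 0.44, CLDN3 -2.63 to 0.22, CSN2 -0.63 to 4.81, CUBN -0.40 to 0.91, DES -3.27 to 1.24, KRT19 -2.15 to 0.42, LALBA -2.10 to 3.82, LEP -1.59 to 0.35, LTF -2.19 to 4.06, MS4A1 -2.08 to 0.20 and SELE -0.71 to 2.97. For benign minus healthy they were EGF -6.04 to -1.57, ERBB2 -0.63 to 0.0471 and KDR -0.63 to 0.58, then ADIPOQ -2.48 to 0.22, AQP2 -1.90 to 0.0342, CD8A -0.17 to 1.35, CSN2 -2.91 to 2.52, KRT14 -1.13 to 2.16, LALBA -3.96 to 1.96, LEP -1.75 to 0.18, LTF -1.01 to 5.24, PPARG -1.39 to 1.38 and SELP -0.37 to 2.65. For malignant minus benign they were EGF -2.32 to -0.49, VEGFA -0.66 to -0.23, the dimmer VEGFA probe -0.43 to -0.0077 and ERBB2 -0.20 to 0.19. A lone healthy dog is assumed to vary like the other groups.

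The number of called probes, 147 for malignant and 134 for benign minus healthy by limma, was 96 to 950 and 86 to 993 when a dog was left out, and 0 to 2 between the tumours. It was 47 and 41 among probes above background on every array, 88 and 81 with the brightest probe of a gene, 91 and 86 with the mean of its probes, and 37 for benign minus healthy with only those groups. With arrays as samples it was 1540, 2506 and 48 over the 3 comparisons, and 870, 726 and 18 with the slide as block. The methods' t-test, run unpaired, gave 1417, 1717 and 803 unadjusted and 32 for malignant minus healthy with either adjustment, and 0 for benign minus healthy, where limma counted 2396 at an unadjusted p of at most 0.05. Other named genes kept direction and side in 2693 results, passed the threshold newly in 67, lost it in 94 and turned in 85. Weak signal over background limits EGF, whose values at background depend on how background is taken off.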
